A study of Mus musculus with 9 samples.

Results

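Cish, 5730420D15Rik, Prlr and Gm41269 are 4 of the 10706 named loci in a table of islet transcript levels, and together they hold 6 of its 25895 transcript lines. They were picked by name, as places where the genome holds the prolactin receptor, 2 genes of cytokine-induced inhibitors and the noncoding loci next to them, and they were picked with the difference between pregnant and virgin islets already known. That difference is therefore given below as a description. Where a fit over all loci called one of them, the call is not support, since it uses the values by which they were picked. Islets of Langerhans are the endocrine cell clusters of the pancreas. Islet RNA came from female mice in 2 groups, virgin (5 libraries) and pregnant (4 libraries), the latter at the stage of gestation that the labels call GD14.5. The labels name no strain, age, genetic change or treatment for either group, and they do not say whether a library is 1 animal or a pool, so every spread given here is a spread between libraries.

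Prolactin and placental lactogen act on beta cells through the prolactin receptor, a cytokine receptor without an enzyme of its own. The bound receptor activates the kinase JAK2, which phosphorylates the transcription factor STAT5, and STAT5 dimers enter the nucleus and bind short palindromic DNA sites. Cish and Socs2 encode SH2-domain proteins that are induced by this pathway and restrain it in a feedback loop, and in rodents lactogen signalling in pregnancy is known for the growth of the beta cell mass.

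Cish lies on the plus strand of chromosome 9 (107296659 to 107302784, GRCm38.p6). RefSeq gives it 3 transcripts, all coding, while GENCODE M21 lists 5, of which 3 are coding and 2 are not. The table has 1 line of that name with no transcript identifier. Which transcript the line stands for is therefore unknown, and its signal cannot be told from the messenger RNA. The noncoding RNA gene 5730420D15Rik lies on chromosome 10 (95417375 to 95428640, plus strand) and runs away from Socs2 (95383903 to 95417321, minus strand). The gap between their outermost RefSeq ends is 53 bases. GENCODE M21 lists a shorter Socs2, with 194 bases between it and 5730420D15Rik, and classes the noncoding gene as a bidirectional promoter lncRNA. Socs2 itself is not analysed here. Prlr lies on the plus strand of chromosome 15 (10177238 to 10349190), with 9 coding transcripts and 1 noncoding transcript in RefSeq and 1 line in the table. Gm41269 (10349726 to 10357823, minus strand) is a long noncoding RNA gene that points toward Prlr tail to tail, with 535 bases between them.

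STAT5 sites have the consensus TTCNNNGAA, which reads alike on both strands. It was searched in windows from 250 bases before to 50 bases after annotated starts, with sequences and starts from RefSeq on GRCm38.p6. The 4 loci have 6 such windows, of which 3 belong to Prlr, and 2 windows hold the motif. The stretches below are shown because they are the Cish start with its 2 matches, the whole gap that Socs2 and 5730420D15Rik share, and the Prlr window with its match; matches are in capitals and all are read 5′ to 3′ on the plus strand.
Cish, chr9:107296409-107296678: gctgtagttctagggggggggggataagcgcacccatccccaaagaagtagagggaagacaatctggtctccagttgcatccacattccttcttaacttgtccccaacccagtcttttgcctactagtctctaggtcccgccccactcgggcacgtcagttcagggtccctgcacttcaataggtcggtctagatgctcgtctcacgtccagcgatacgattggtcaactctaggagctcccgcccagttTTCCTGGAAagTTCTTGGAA
Socs2 and 5730420D15Rik gap, chr10:95417322-95417374: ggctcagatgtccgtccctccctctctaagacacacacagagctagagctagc
Prlr, chr15:10223656-10223905: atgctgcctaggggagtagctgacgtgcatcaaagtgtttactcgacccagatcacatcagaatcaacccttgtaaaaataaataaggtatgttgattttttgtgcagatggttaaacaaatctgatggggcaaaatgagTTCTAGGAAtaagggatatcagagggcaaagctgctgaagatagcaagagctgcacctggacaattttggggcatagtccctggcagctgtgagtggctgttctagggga

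At Cish the matches TTCCTGGAA and TTCTTGGAA cover positions 1 to 9 and 12 to 20, counted from the first base of the RefSeq gene. The GENCODE coding transcript Cish-204 starts 32 bases beyond the end of the second match, and Cish-201 starts 652 bases before it. Of all 32851 RefSeq windows of this length, 8.3% hold the motif and 0.457% hold it at least 2 times. Matches that start within 11 bases of each other, a distance taken from Cish after it was seen, occur in 3 windows. In the Prlr window the match TTCTAGGAA lies at positions −110 to −102 of the second annotated start. The windows of 5730420D15Rik and Gm41269 and the other 2 of Prlr hold no match, which says only that these letters are not in these windows. The plot of motif matches shows their places.

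**Figure D1:**
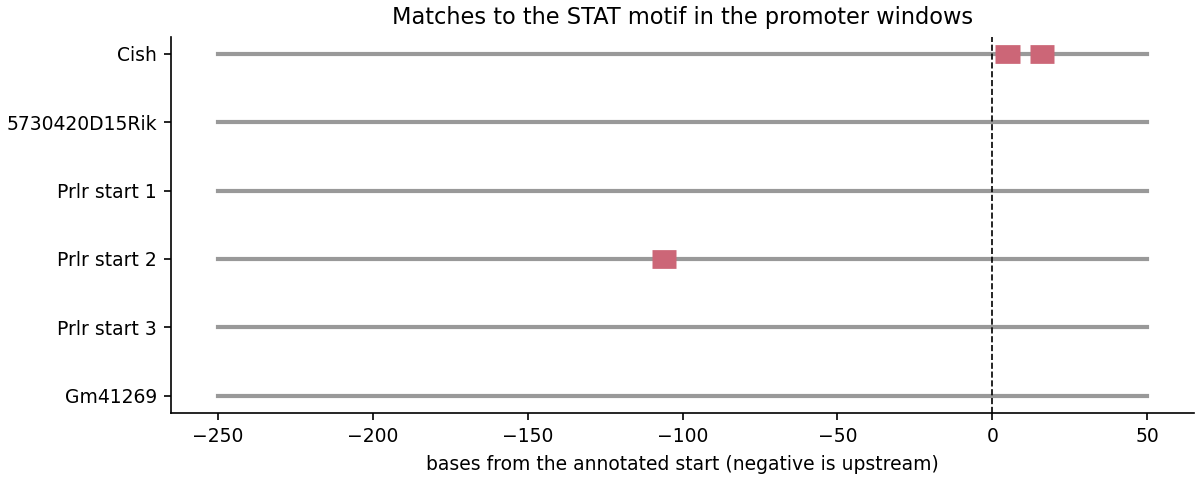
Matches to the STAT motif TTCNNNGAA in the promoter windows of the 4 loci. The x axis is the distance in bases from each annotated start, grey lines are the searched windows from −250 to 50, and red blocks are matches. Cish has 2 matches just past its start, and the second Prlr start has 1 match from −110 to −102.

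The values are FPKM (fragment counts scaled for transcript length and library size), summed over the lines of a name. Levels can be set beside each other between genes only for the listed lines, which need not hold every transcript of a gene. RefSeq classes 9300 of the 10706 names as long noncoding RNA genes and 1284 as protein-coding genes. A locus was tested where its mean FPKM over the 9 libraries was at least 0.5, which left 2377 loci. Of these, 1768 are long noncoding RNA genes and 579 protein-coding genes, so every rank below is a rank among mostly noncoding loci. Cish, 5730420D15Rik and Gm41269 passed and Prlr did not. The libraries differed in the summed FPKM of the whole table, from 5415.3 to 20530.6 among virgin and from 6488.1 to 14636.3 among GD14.5 libraries, and GD14.5 replicate 4 and virgin 4 and 5 had the largest sums. The depth behind the values is unknown. Of 47 marker genes listed for islet, endothelial, immune, stromal, acinar, ductal, fat and B cells, 3 had a line. Col1a1 was listed at 0 in 9 of 9 libraries, Sox9 reached at most 0.01 FPKM, and the stromal gene Col3a1 spanned 0 to 16.23 FPKM in virgin and 0 to 8.46 at GD14.5. The hormone genes that define islet cells are not analysed here, so the tissue label was not checked against them.

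Cish, the feedback inhibitor at the receptor, had the highest level of the 4 loci at GD14.5. In virgin islets it was at 3.88, 1.82, 2.07, 3.93 and 3.15 FPKM in replicates 1 to 5, and at GD14.5 at 18.31, 23.3, 31.69 and 43.02 FPKM in replicates 1 to 4. The groups did not overlap, and the lowest GD14.5 library stood at 4.66 times the highest virgin library. The means were 2.97 ± 0.989 FPKM (SD, n = 5) and 29.1 ± 10.8 FPKM (SD, n = 4), a ratio of 9.79. On log2(FPKM + 0.5), a scale that understates changes of low values, the difference was 3.07 ± 0.49 (SE), the second largest rise among the 2377 loci. In bulk islets, more RNA per cell and a larger share of cells with the RNA cannot be told apart.

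Within each library Cish also changed its place among the tested loci. Counted from the most abundant locus, it ranked 146, 832, 512, 671 and 971 in virgin 1 to 5 and 28, 26, 21 and 33 in GD14.5 replicates 1 to 4. The virgin ranks were thus spread widely, with virgin 1 nearest to the pregnant libraries, while the 4 GD14.5 ranks lay close together. Libraries that carry the same replicate number differed 4.72, 12.8, 15.3 and 10.9 times in Cish FPKM for numbers 1 to 4.

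**Figure D2:**
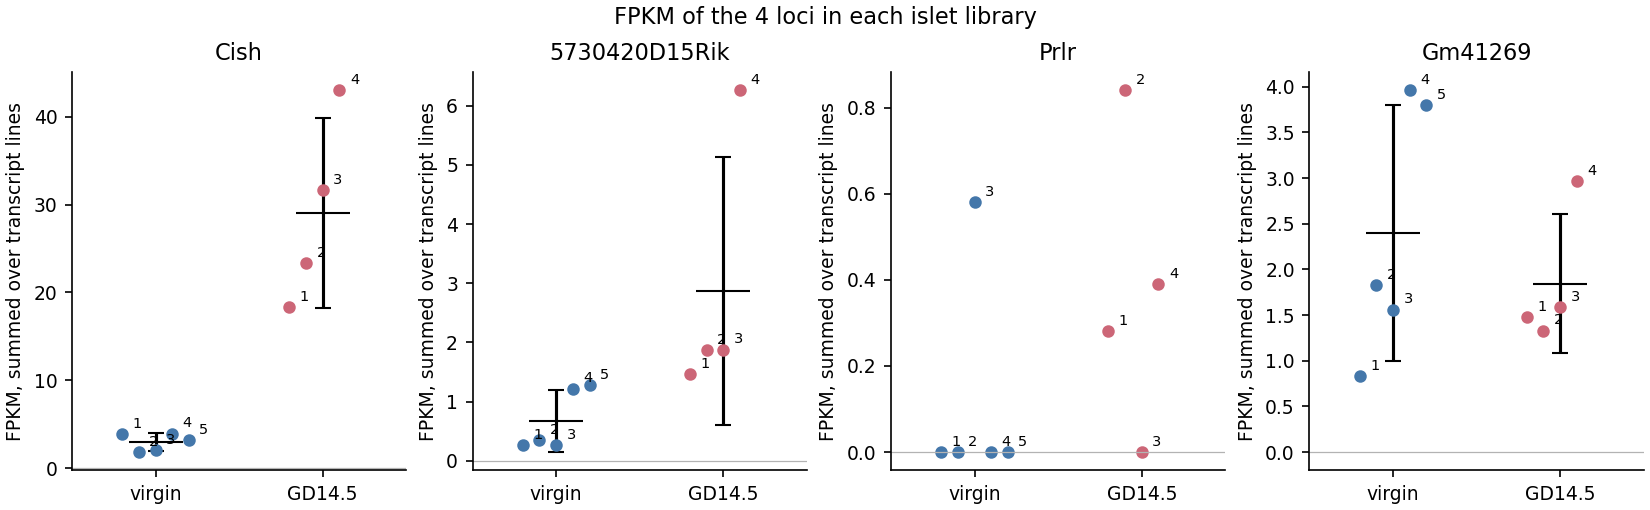
FPKM of Cish, 5730420D15Rik, Prlr and Gm41269 in each library, with a separate linear y axis per panel. Points are libraries labelled by replicate number, horizontal marks are group means and error bars are SD (n = 5 virgin, n = 4 GD14.5; none for Prlr, which is listed at 0 in several libraries). Cish and 5730420D15Rik have every GD14.5 library above every virgin library, and Prlr and Gm41269 overlap.

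5730420D15Rik, the noncoding neighbour of the feedback inhibitor gene Socs2, was low in virgin islets and higher at GD14.5. Its levels were 0.26, 0.35, 0.26, 1.22 and 1.28 FPKM in virgin 1 to 5 and 1.46, 1.87, 1.88 and 6.26 FPKM in GD14.5 replicates 1 to 4. The groups did not overlap, but the margin was small, since the lowest GD14.5 library stood at 1.14 times the highest virgin library. GD14.5 replicate 4 stood far above the other 3. The means were 0.674 ± 0.528 FPKM (SD, n = 5) and 2.87 ± 2.27 FPKM (SD, n = 4), and the difference on log2(FPKM + 0.5) was 1.44 ± 0.42 (SE), 1.04 without GD14.5 replicate 4.

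The margin was wider once each library was read against its own median locus. Less that median, 5730420D15Rik was at −0.77 ± 0.19 on the log2 scale in virgin islets (SD, n = 5) and at 0.96 ± 0.46 at GD14.5 (SD, n = 4). Its rank from the top moved from between 1822 and 2266 in virgin libraries to between 319 and 654 at GD14.5. Same-numbered libraries differed 5.62, 5.34, 7.23 and 5.13 times, a narrow range although the levels themselves spread widely.

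The table has 2 lines for 5730420D15Rik, and RefSeq lists 2 transcripts, but the lines carry no identifier that would match them. The first line was listed at 0 in virgin 1, 2 and 4, at 0.12 and 0.19 FPKM in virgin 3 and 5, and at 0.41, 0.45, 0.86 and 1.76 FPKM in GD14.5 replicates 1 to 4. For this line the groups did not overlap, and the lowest GD14.5 library was 2.16 times the highest virgin library. The second line, at 0.26, 0.35, 0.14, 1.22 and 1.09 FPKM in virgin and 1.05, 1.42, 1.02 and 4.5 FPKM at GD14.5, did overlap between groups through virgin 4 and 5. The first line made up 24.1% to 45.7% of the locus at GD14.5, while in virgin libraries its share was 0% in 3, 14.8% in virgin 5 and 46.2% in virgin 3. The virgin 3 share rests on 0.12 of 0.26 FPKM.

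**Figure D3:**
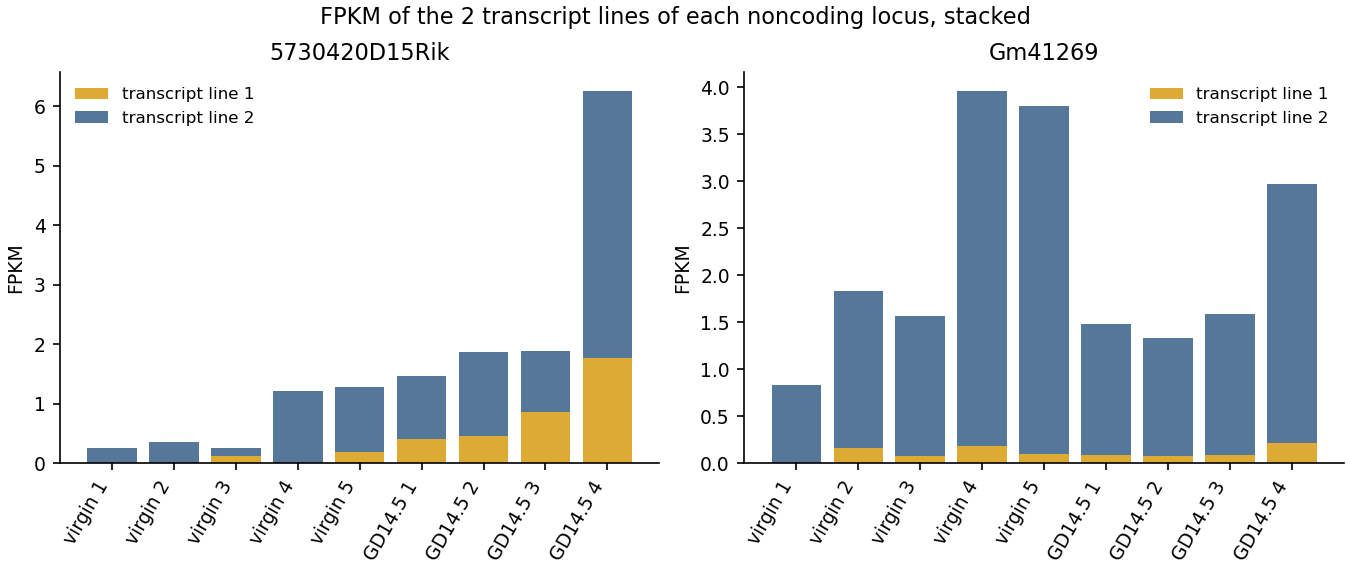
Stacked FPKM of the 2 transcript lines of 5730420D15Rik and of Gm41269 in each of the 9 libraries, on linear axes that start at 0. The first line of 5730420D15Rik is present in all 4 GD14.5 libraries and in 2 of 5 virgin libraries, and the second line carries most of Gm41269 throughout.

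The line under the receptor gene Prlr was near the floor of the table. It was listed at 0 in virgin 1, 2, 4 and 5 and in GD14.5 replicate 3. The other values were 0.58 FPKM in virgin 3 and 0.28, 0.84 and 0.39 FPKM in GD14.5 replicates 1, 2 and 4. The groups overlapped, and the line was present in 3 of 4 GD14.5 and 1 of 5 virgin libraries. The difference on log2(FPKM + 0.5) was 0.50 ± 0.36 (SE), with a 95% interval of −0.35 to 1.35. It was 1.31 with a pseudocount of 0.1, so its size is set largely by how a listed 0 is treated. Which of the receptor's transcripts the line stands for is unknown, and it is not a measure of total receptor RNA.

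Gm41269, downstream of Prlr on the opposite strand, showed no such separation. Its levels were 0.83, 1.83, 1.56, 3.96 and 3.8 FPKM in virgin 1 to 5 and 1.48, 1.33, 1.59 and 2.97 FPKM in GD14.5 replicates 1 to 4. It was highest in virgin 4 and 5 and, at GD14.5, in replicate 4, the libraries with the largest summed FPKM, and the groups overlapped. The means were 2.40 ± 1.40 FPKM (SD, n = 5) and 1.84 ± 0.759 FPKM (SD, n = 4), with a log2 difference of −0.21 ± 0.43 (SE).

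Read against the library median, Gm41269 was nearly level, at 0.50 ± 0.17 in virgin and 0.58 ± 0.11 at GD14.5 on the log2 scale (SD, n = 5 and 4). The sign of its difference turned with this scaling, to 0.08 with a 95% interval of −0.18 to 0.34. Its rank from the top lay between 666 and 867 in virgin and between 644 and 801 at GD14.5. RefSeq lists 1 transcript and the table has 2 lines, of which the first took 0% to 8.74% of the locus in virgin and 5.66% to 7.07% at GD14.5.

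**Figure D4:**
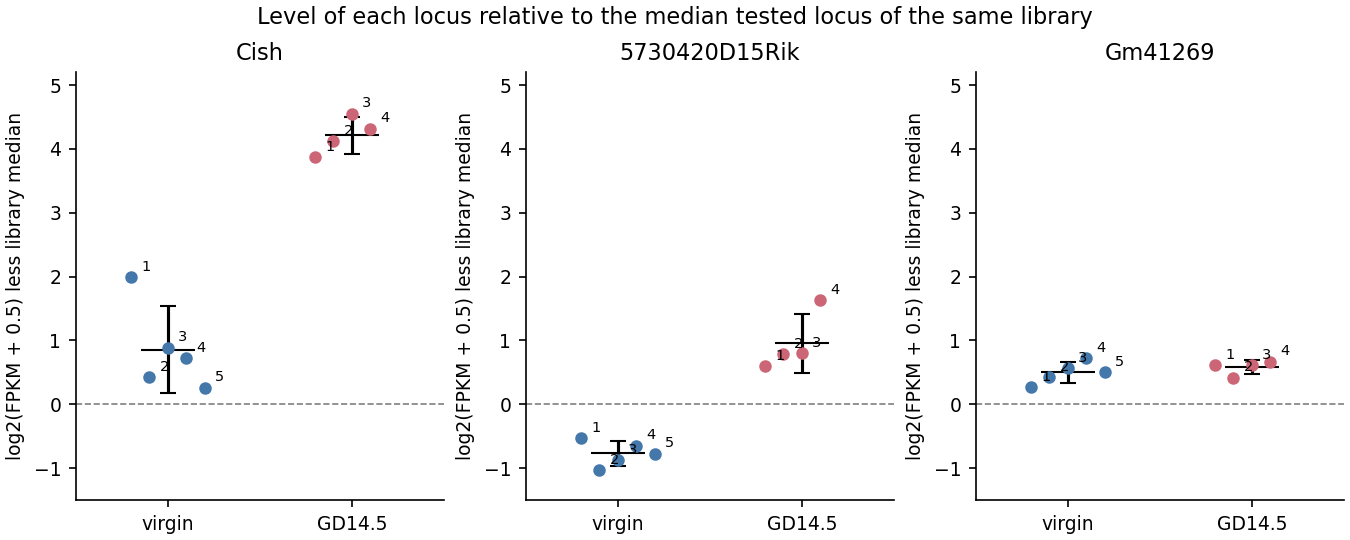
Level of Cish, 5730420D15Rik and Gm41269 as log2(FPKM + 0.5) less the median tested locus of the same library, which is the dashed line at 0. Points are libraries labelled by replicate number, and bars are mean and SD (n = 5 virgin, n = 4 GD14.5). Cish moves from 0.86 to 4.21 and 5730420D15Rik from −0.77 to 0.96, while Gm41269 is at 0.50 and 0.58.

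Across all loci, limma with Benjamini-Hochberg adjustment at 0.05 called 0.168% of the 2377 loci higher at GD14.5 and 0% lower, and of the 3 tested members it called Cish. With the replicate number as a block it called 0.968% higher and 0.126% lower, and Cish and 5730420D15Rik were among those higher, with log2 differences of 3.10 ± 0.27 and 1.62 ± 0.18 (SE). Gm41269 was at −0.03 ± 0.21 (SE) in that fit and was not called. Without the block, 5730420D15Rik was also among the loci called with equal medians, equal totals and quantile normalization, and without the 3 libraries of highest summed FPKM. It was not called with a pseudocount of 0.1 or 1, with no filter on low values, or with a minimum mean of 1 FPKM. Nor was it called in any fit that left out 1 library. GD14.5 lay wholly above virgin at 0.421% of all loci, and at Cish and 5730420D15Rik. These shares give the background only, since the loci were chosen on the same contrast. By size of the difference, 5730420D15Rik ranked 14 of 2377 both without and with the block.

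**Figure D5:**
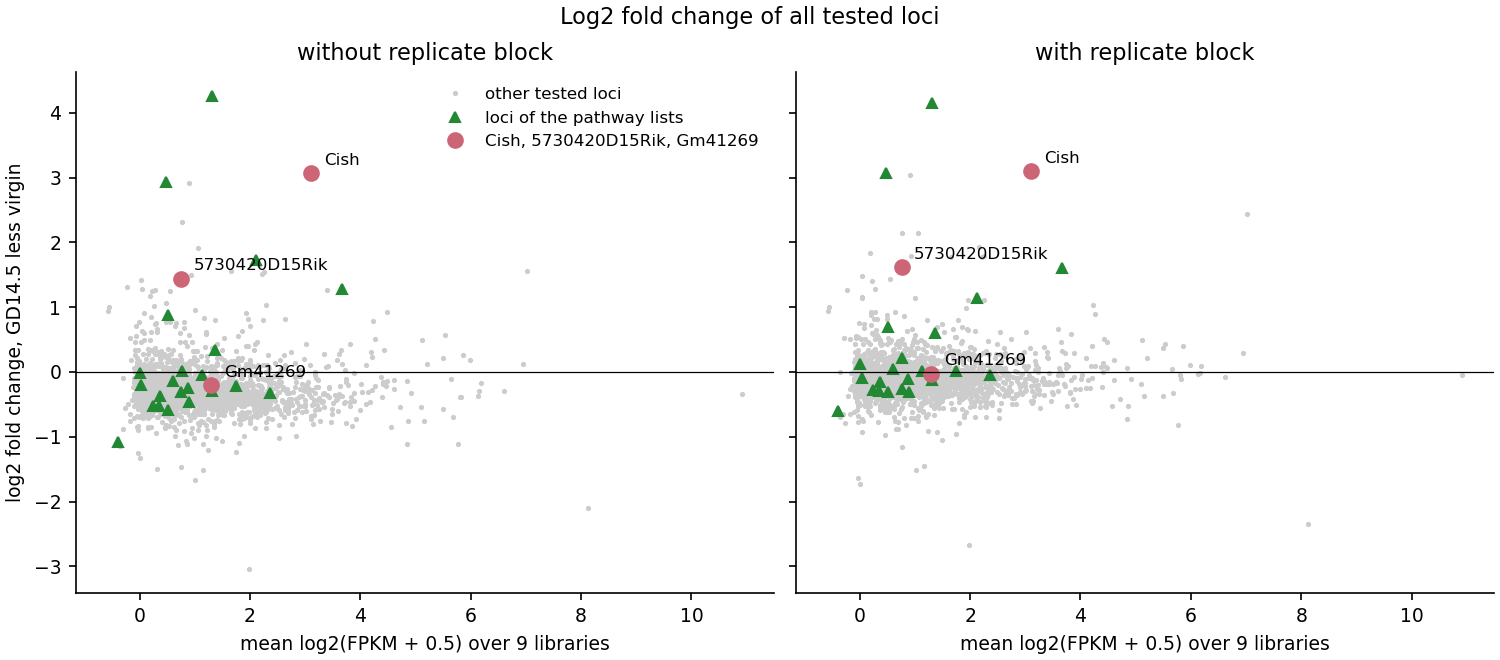
Log2 difference between GD14.5 and virgin against mean log2(FPKM + 0.5) for the 2377 tested loci, without the replicate block on the left and with it on the right. Grey points are other loci, green triangles are loci of the 2 pathway lists and red circles are Cish, 5730420D15Rik and Gm41269. Cish stands at 3.07 and 3.10, and Gm41269 lies within the bulk of the loci.

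A list of 41 gene names, 40 of them in RefSeq, held ligands, receptors, kinases, STAT factors and inhibitors of the JAK-STAT5 pathway. Of these, 6 had a line of their own, Cish and Prlr included. Apart from the 4 loci above, 26 loci with a line lie at the listed genes or within 20 kb of them, and 10 were tested. Of the tested loci only Socs5 and Socs7 are genes of the list, and the rest are neighbours. No gene of a ligand, receptor, kinase or STAT factor was tested, so the counts mostly describe neighbouring loci. Limma called 0 of the 10 in either direction without and with the block, with 0 at an unadjusted p under 0.05 in both fits. Of all tested loci, 0.168% were called and 2.52% had an unadjusted p under 0.05. With the block these shares were 1.09% and 9.3%. At such shares 0 of 10 is no result about these loci. Their median log2 difference was −0.23, against −0.305 over all tested loci, and with the block −0.07 against −0.13. The most abundant were Mapk1ip1l beside Socs4, at 5.96 ± 3.64 FPKM in virgin (SD, n = 5) and 4.37 ± 2.32 FPKM at GD14.5 (SD, n = 4), and Socs7 itself. Socs7, whose protein is a further SH2-domain member of the inhibitor family, was at 3.49 ± 2.01 and 2.70 ± 1.01 FPKM. Its log2 difference was −0.22 ± 0.45 (SE, 95% interval −1.16 to 0.72). That of Socs5 was −0.59 ± 0.48 (SE, 95% interval −1.58 to 0.40), and −0.315 with the block. For Socs5 it was −0.905 without GD14.5 replicate 4 and −0.12 without the 3 libraries of highest summed FPKM.

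A second list held 32 genes known as lactogen or STAT5 targets, of which 5 had a line of their own. Outside the 4 loci, Ivd and Lrrc55 were the only genes of the list that were tested. With neighbours, and still outside the 4 loci, 12 of its 29 loci were tested. Limma called 2 of them higher and 0 lower, and 3 higher with the block. Of all tested loci it called 0.168% higher and 0% lower, and 0.968% higher with the block. At an unadjusted p under 0.05 without the block, 5 of the 12 were higher and 1 was lower, where 1.09% and 1.43% of all tested loci were. With the block these counts were 6 and 0, against 3.49% and 5.81% of all tested loci. The median log2 difference was 0.14, against −0.305 over all tested loci. The list was drawn up with results of these libraries known, so its counts are no independent evidence. The called loci were Ivd, which encodes an enzyme of leucine breakdown (4.26 ± 0.41, SE), Gm13715 beside Lrrc55 (2.93 ± 0.52, SE, and 2.10 without GD14.5 replicate 4) and, with the block, 1300002E11Rik beside the peroxisomal gene Ehhadh (1.60 ± 0.22, SE). In virgin islets Ivd lay between 0 and 0.67 FPKM and Gm13715 between 0 and 0.33 FPKM. Their virgin means, 0.21 and 0.076 FPKM, are below the minimum for testing, which both reached only through the GD14.5 libraries. Their differences depend on the pseudocount, at 5.9 and 4.7 with 0.1 and at 3.5 and 2.2 with 1. The 1 lower locus was Lrrc55 itself, at −1.08 ± 0.495 (SE) and at −0.60 with the block, called in neither fit. Without the 3 libraries of highest summed FPKM it was at −0.02. Without virgin replicate 1 the list had 1 call, Ivd, and a median of −0.08, against −0.48 over all tested loci, and without GD14.5 replicate 4 the 2 medians were −0.15 and −0.47.

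Among the list loci called in neither fit, the most abundant was Bc1, a short noncoding RNA 15308 bp from the cyclin gene Ccnd1. It was at 4.38 ± 4.37 FPKM in virgin (SD, n = 5) and 10.4 ± 8.58 FPKM at GD14.5 (SD, n = 4). Gm41549 at Igfals, the gene of a serum carrier of insulin-like growth factors, was at 2.19 ± 1.63 and 2.86 ± 2.34 FPKM. Gm40227 near the cell cycle inhibitor gene Cdkn2c was at 2.45 ± 1.31 and 1.78 ± 0.631 FPKM. Sergef, next to the serotonin synthesis gene Tph1, was at 1.82 ± 0.698 and 1.69 ± 0.559 FPKM.

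The other loci with a line around the 3 places on the genome held little further signal. Within 250 kb, 3 other named loci had lines around Cish, 5 around Socs2 and 2 around Prlr. RefSeq classes all 10 as long noncoding RNA genes, so coding neighbours are not described. Of these 10 loci, 0 reached the minimum for testing. When all loci above 0 were fitted, limma called 0 of the 10, against 0.0292% of all 10284 loci in that fit. An unadjusted p under 0.05 was found for 1 of the 10 and for 2.95% of all. This was Gm29684, 238.1 kb from Socs2, where GD14.5 lay above virgin, at 0.08, 0.07, 0.03 and 0.46 FPKM against at most 0.02 FPKM. Gm33230, inside Socs2, was at 0.21 FPKM in virgin 5 and listed at 0 in the other 8 libraries. At Gm46239, 83.6 kb from 5730420D15Rik, the other libraries were at 0.01 to 0.04 FPKM and GD14.5 replicate 4 at 1.3 FPKM. GD14.5 replicate 4 was also the highest library at 5730420D15Rik, Gm29684 and 2310039L15Rik. Around Cish the highest value of another locus was 0.25 FPKM, at Gm34106 in virgin 4 and 5.

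The loci with the pattern most like Cish over the 9 libraries, by Pearson's r of log2(FPKM + 0.5) less the library median, were Gm33391 (0.976), Gm26876 (0.971), Gm41349 (0.961), Gm39529 (0.96) and Gm26684 (0.953). All are noncoding names with lower levels, from 0.284 to 0.586 FPKM in virgin and from 1.03 to 5.70 FPKM at GD14.5 on average. For 5730420D15Rik they were 4930594M22Rik (0.991), Gm39928 (0.982), Lonrf3 (0.98), Gm14636 (0.979) and Gm26684 (0.977). Gm26684 is on both lists of likeness. The r values share libraries and the difference between groups, and they are given as a description.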

How the data were processed

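Islet RNA was extracted with TRIzol and enriched on oligo(dT) beads, per the labels' protocols. The authors deposited FPKM for 9 libraries, with 1 line per transcript and 2 decimals. The build is GRCm38.p6, per the submitters' processing notes. Not given in the sources used here are aligner, quantifier, annotation and strandedness, so reads of overlapping or antisense genes cannot be told apart. Lines of a name were summed. The 480 of 26375 lines whose name carries a copy suffix were left out.

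Differences were fitted on log2(FPKM + 0.5) with limma 3.58.1 (R 4.3.3; variance trend, two-sided) over 2377 loci with a mean of at least 0.5 FPKM, adjusted by Benjamini-Hochberg at 0.05, and the code was tested on simulated data. For Prlr, below that minimum, the SE is from least squares. Deviations from the group means correlated between same-numbered libraries at 0.488, 0.204, 0.277 and 0.59 for numbers 1 to 4, all above 0.1. The labels state no pairing, and virgin 5 with GD14.5 replicate 4 gave 0.493. Virgin 2 with GD14.5 replicate 1 gave 0.232 and virgin 3 with GD14.5 replicate 2 gave 0.253. The remaining differently numbered pairs lay between −0.545 and 0.175. Library medians were not taken off, so these correlations cannot tell a pairing from a shared library level. Blocked values are given for some loci, including ones where they change no call. Virgin 5 has no partner and adds nothing to them. From its own residuals alone, the SE of Cish was 0.319 without the block and 0.341 with it.

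The members and lists were chosen with earlier results of these data known. Named list loci are those called, plus the 6 most abundant of the rest. Socs5 and Lrrc55 are named besides, as listed genes with a line of their own. For likeness, the 5 highest correlations are named. Alternatives are pseudocounts of 0.1 and 1, other scalings, filters, single lines and each library left out. Leaving out the 3 libraries of highest summed FPKM was added after the data were seen.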

Additional observations from a re-analysis of the deposited data

Results flagged for a closer look

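Dixon's ratio, the gap of an extreme library to its nearest neighbour over the range of the group, was taken for each of the 4 loci in each group, and chance puts about 1 in 20 such ratios above the 95% critical value. It was above that value at 5730420D15Rik, where log2(FPKM + 0.5) was 2.76 in GD14.5 replicate 4 and 0.97 to 1.25 in the other 3 GD14.5 libraries. At Prlr, log2(FPKM + 0.5) was 0.11 in virgin replicate 3, and the other 4 virgin libraries are listed at 0 FPKM. Those 4 are tied, which makes the ratio 1 by construction.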

How the results depend on the processing

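Without the block, limma called 4 loci higher and 0 lower, with 26 and 34 at an unadjusted p under 0.05. The counts were 23 and 3 with the replicate block, 22 and 1 with equal medians, 25 and 6 with equal totals, 24 and 5 after quantile normalization, 15 and 0 with the block on equal medians, and 13 and 1 without the 3 libraries of highest summed FPKM. Leaving out 1 library gave 3 to 5 higher and 0 to 1 lower, with 1 lower without virgin replicate 4. The median difference of all loci moved from −0.305 to −0.02 with equal medians. The log2 difference of Cish stayed between 2.86 and 3.26 and that of 5730420D15Rik between 1.04 and 1.63 without 1 library, and they were 3.04 and 1.50 without the 3 libraries. For Gm41269 the range was −0.45 to −0.02 and for Prlr 0.27 to 0.74. With a pseudocount of 0.1, Prlr moved to 1.31. Of the other list loci 2 were called higher and 0 lower, 1 higher with no filter on low values, and 1 to 2 when 1 library was left out. On the values as deposited, the block changed no call of a member or list locus apart from 5730420D15Rik and 1300002E11Rik. On equal medians it ended the call of Gm13715 (limma adjusted p = 0.0283 without and 0.147 with the block). FPKM without counts gives no depth, so no counting error can be set on the low values of Prlr.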

Other observations

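The members differed in how far they followed the level of their library. Within groups, the SD of log2(FPKM + 0.5) fell from 0.72 to 0.33 for 5730420D15Rik and from 0.62 to 0.15 for Gm41269 when the library median was taken off. For Cish it rose from 0.48 to 0.55. Over all tested loci the median SD fell from 0.588 to 0.263, and it rose at 11.7% of them, at 9.95% of loci that RefSeq classes as long noncoding RNA genes and at 16.8% of those with the name of a coding gene. The rise at Cish came from the virgin group, where the SD went from 0.43 to 0.68, while at GD14.5 it went from 0.53 to 0.29. Virgin 1 and virgin 4 had nearly equal Cish, at 3.88 and 3.93 FPKM, although their median loci were at 0.14 and 1.43 on the log2 scale. The cause was not tested.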
